A study of Mus musculus with 10 samples.

Results

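The genes described here are 10 markers of hippocampal subfields, the regions that differ in cell type along the hippocampal circuit. They were chosen by name: Prox1, C1ql2, Dsp and Calb1 for the dentate gyrus, Wfs1, Fibcd1 and Pou3f1 for CA1, Bok and Iyd for CA3, and Amigo2 for CA2. All 10 were among the 17622 genes with enough counts to be tested, of 56884 gene identifiers in the table. RNA came from hippocampi of 9 to 9.5-month-old female mice of the P301S line (also called PS19), all of which carry human 1N4R Tau with the P301S mutation, driven by the mouse Prnp promoter. The mice kept their ovaries and had a subcutaneous tube for 12 weeks from about 6 months of age, either void (empty, 5 mice) or holding 10 mm of powder of dihydrotestosterone (DHT, an androgen that aromatase cannot turn into estrogen, 5 mice). No mice without the transgene are among these samples, so the values describe DHT in tau-transgenic females only, and the Prnp promoter is not limited to any subfield.

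In the hippocampal circuit, dentate granule cells receive cortical input and send mossy fibres to CA3, CA3 pyramidal cells project to CA1, and CA1 sends the output onward, with the small CA2 field between CA3 and CA1. Each principal cell type keeps its own set of transcripts in the adult, which is why such markers are used to read how much of each subfield a piece of tissue holds. In the dentate set, Prox1 is the homeobox transcription factor that specifies granule cells, C1ql2 is a secreted synaptic organizer, Dsp is desmoplakin and Calb1 is calbindin, a calcium buffer that many CA1 pyramidal cells and interneurons also make. In the CA1 set, Wfs1 is wolframin, a membrane protein of the endoplasmic reticulum, Fibcd1 is a receptor with a fibrinogen-like domain and Pou3f1 is a POU transcription factor. In the remaining set, Bok belongs to the BCL-2 family, Iyd is an enzyme that recovers iodide, and Amigo2 is an adhesion protein with leucine-rich repeats. On Nissl-stained sections the study found that the dentate granule cell layer covered less area with DHT, and it found lower synaptophysin protein in hippocampal lysates. The markers address a related question with a different measure, RNA: whether DHT changed the share or state of any subfield.

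The transcripts of these markers differ widely in base composition, which became relevant when the markers were compared between mice. G and C made up 63.9% of the longest Pou3f1 transcript and 63.3% of that of C1ql2, but 45.7% of that of Iyd and 36.8% of that of Calb1. The first 120 coding bases of Pou3f1 and C1ql2, the 2 richest, and of Iyd, one of the poorer ones, are shown with G and C in capitals.
Pou3f1: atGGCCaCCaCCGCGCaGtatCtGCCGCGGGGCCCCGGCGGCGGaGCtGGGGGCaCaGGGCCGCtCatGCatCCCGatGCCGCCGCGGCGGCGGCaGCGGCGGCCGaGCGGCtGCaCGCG
C1ql2: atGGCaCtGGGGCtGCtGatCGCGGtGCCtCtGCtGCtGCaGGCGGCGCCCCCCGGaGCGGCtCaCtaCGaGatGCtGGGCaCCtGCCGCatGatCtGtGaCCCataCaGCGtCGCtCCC
Iyd: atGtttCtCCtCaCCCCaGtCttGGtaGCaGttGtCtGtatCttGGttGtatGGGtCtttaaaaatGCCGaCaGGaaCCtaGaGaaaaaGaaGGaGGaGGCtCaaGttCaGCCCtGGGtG
Of these 120 bases, 96 were G or C in Pou3f1, 82 in C1ql2 and 57 in Iyd. The sequences are the sense strand of GENCODE M21 transcripts (GRCm38). Over the whole coding sequence the share of G and C was 72.9% for Pou3f1 and 43.2% for Calb1. Calb1 is therefore poorest outside its coding part.

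Each mouse gave 1 library, with total counts between 27188854 and 47113661 over the 10 mice, so that even the scarcest marker, Iyd, had between 69 and 207 counts per mouse and Prox1 had between 3706 and 7390. Markers of all 4 subfields were thus counted in every library. Amigo2 is the only CA2 marker of the 10, and its counts alone do not show that CA2 was present. Levels are given as CPM, counts relative to library size after TMM scaling between libraries. The mice with void are listed in the order of replicates 10, 11, 4, 5 and 9, and those with DHT in the order 1, 2, 3, 5 and 6. Void libraries all come before DHT libraries in the library numbers of the labels, and the effects of order and of treatment cannot be told apart. The choroid plexus, a tissue that lies within the ventricle next to the hippocampus, was unevenly represented. All 12 of its marker genes had higher means with DHT (4 passed the test and all 12 had an unadjusted p under 0.05). The summed level of these genes was 359 to 3253 CPM with void and 3897 to 5712 CPM with DHT. All 8 microglial markers had positive log2 fold changes (6 passed the test and 7 had an unadjusted p under 0.05). Their summed level was 418 to 491 CPM with void and 594 to 877 CPM with DHT. The 8 pan-neuronal markers all had negative log2 fold changes, from −0.21 to −0.06, of which 0 passed edgeR's test and 1 had an unadjusted p under 0.05. The mean of their log2 CPM was 9.28 ± 0.04 (SD, n = 5) in void mice and 9.15 ± 0.11 (SD, n = 5) in DHT mice (two-sided exact permutation p = 0.0397).

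None of the 10 subfield markers passed the test of DHT against void. The test was edgeR's quasi-likelihood test on all 17622 genes, and a gene was called where its Benjamini-Hochberg adjusted p was under 0.05. Of the 10 markers, 0 were called, also with an added limit of 1 on the log2 fold change, against 5.48% of all genes tested in either direction (5.22% higher and 0.261% lower with DHT) and 2.19% with the added limit. By DESeq2 0 were called too, and 0 of the 10 had an unadjusted p under 0.05 in edgeR, against 17.4% of all genes. In each of the 10, the values of the groups overlapped, whereas the groups did not overlap for 6.27% of all genes. Over the 10 markers 5 log2 fold changes were positive and 5 negative, with a median of 0.05 beside 0.01 over all genes. That none was called does not show that the levels were equal, and RNA level is a different measure from the granule cell layer area that the study found smaller. In whole tissue, fewer cells of a type and less RNA per cell cannot be told apart.

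**Figure D1:**
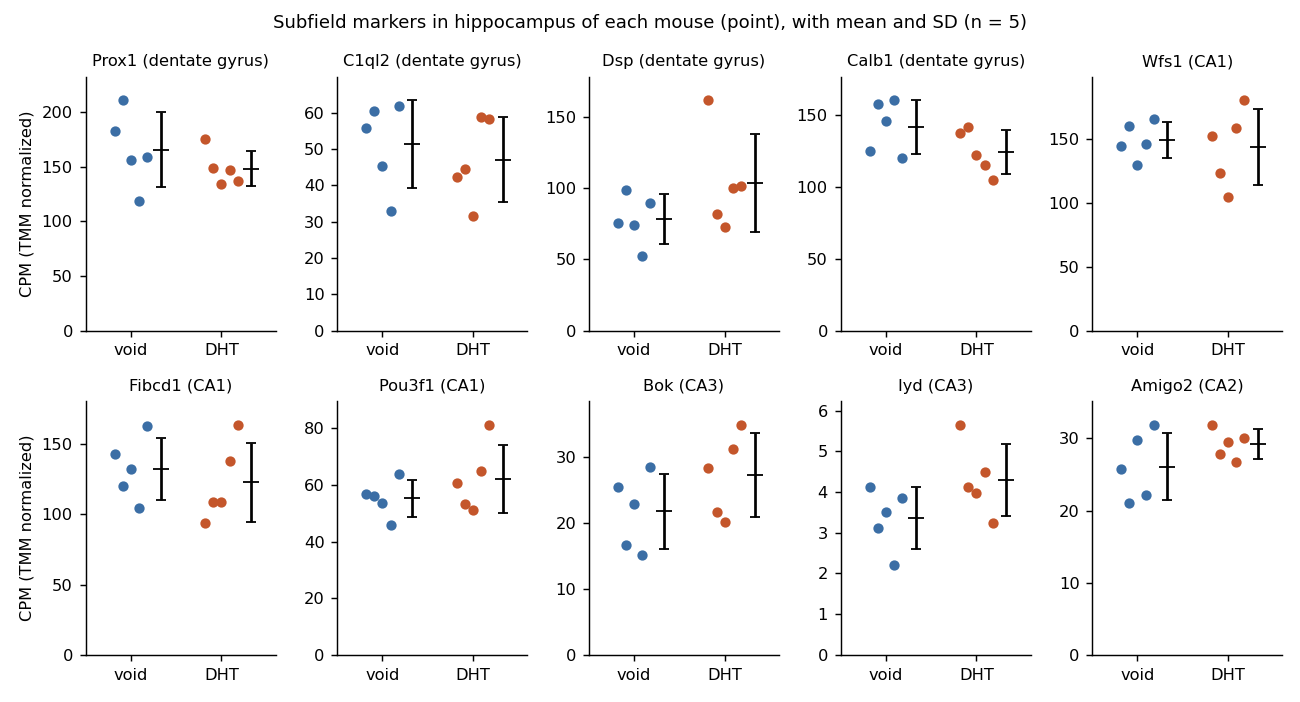
Level of each of the 10 subfield markers in CPM (y axis, from 0) in hippocampus of each void (blue) and DHT (orange) mouse, 1 point per mouse, with the group mean and SD (n = 5) as a bar beside the points. The groups overlap in every panel, and the highest Dsp value, 161.7 CPM, belongs to 1 DHT mouse.

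Prox1 (ENSMUSG00000010175) was at 183, 211, 156, 118 and 159 CPM with void and at 175, 149, 134, 147 and 137 CPM with DHT. Both the highest and the lowest values were void mice, and the DHT values lay within the void range. The lowest, void replicate 5, was also the lowest void mouse for C1ql2, Dsp, Fibcd1, Pou3f1, Bok and Iyd. The log2 fold change of Prox1 was −0.16 (standard error, SE, of 0.13), and the 95% interval of the fold ran from 0.735 to 1.09 (adjusted p = 0.623, edgeR's quasi-likelihood test). Without void replicate 5 it was −0.26 (unadjusted p = 0.0301, adjusted p = 0.212, edgeR).

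C1ql2 (ENSMUSG00000036907), which mossy fibres carry to their synapses, was at 55.8, 60.7, 45.4, 33.04 and 61.98 CPM with void and at 42.4, 44.6, 31.5, 58.9 and 58.4 CPM with DHT. In each group most mice were well above the lowest one, and the lowest and highest values of both groups were alike. The coefficient of variation was 23.6% with void and 24.6% with DHT. The log2 fold change was −0.12 (standard error 0.19), with a 95% interval of the fold from 0.684 to 1.23.

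Calb1 (ENSMUSG00000028222) was at 125, 158, 146, 160.4 and 119.8 CPM with void and at 138, 142, 122, 115 and 105 CPM with DHT. The 3 highest values were void mice, and the 3 lowest were void replicate 9 and DHT replicates 5 and 6, whose libraries were the most GC-rich. DHT minus void was −0.19 on the log2 scale (SE 0.10, adjusted p = 0.399, edgeR), and its fold lay between 0.751 and 1.02 in the 95% interval. DESeq2 gave Calb1 the lowest adjusted p of the 10, 0.357.

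Dsp (ENSMUSG00000054889), a protein of cell-to-cell junctions that granule cells express strongly, was the dentate marker with a positive log2 fold change. It was at 75.4, 98.6, 74.2, 52.6 and 89.6 CPM with void and at 161.7, 81.5, 72.96, 100 and 102 CPM with DHT. DHT replicate 1 stood above all others, and the other 4 DHT mice lay within or just above the void range. DHT minus void was 0.41 on the log2 scale (SE 0.21, adjusted p = 0.363, edgeR) with all mice and 0.15 without DHT replicate 1.

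In CA1, Wfs1 (ENSMUSG00000039474) was at 145, 161, 129.8, 146 and 166 CPM with void and at 152, 123, 104, 159 and 181 CPM with DHT. The DHT mice held both the lowest and the highest value, and their coefficient of variation was 20.9% against 9.46% with void. The log2 fold change was −0.06 (standard error 0.13), with a 95% interval of the fold from 0.791 to 1.17.

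Fibcd1 (ENSMUSG00000026841) was at 143, 120.2, 132, 105 and 163 CPM with void and at 94.02, 109, 109, 138 and 164 CPM with DHT. The highest mouse of each group was at nearly the same level, and the lowest 3 of the 10 mice were 1 void and 2 DHT mice. The log2 fold change was −0.11 (standard error 0.15). With the GC balance of each library (defined with the covariation of the markers) as a covariate, chosen after seeing the data, it was −0.22 (adjusted p = 0.112, edgeR), the lowest adjusted p of any of the 10 markers in any setting.

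Pou3f1 (ENSMUSG00000090125) was at 56.6, 56.2, 53.8, 45.9 and 63.97 CPM with void and at 60.5, 53.3, 51, 64.8 and 81.3 CPM with DHT. DHT replicate 6 was highest and the other 4 DHT mice lay within about 1 CPM of the void range. The log2 fold change was 0.17 (standard error 0.12) with all mice and 0.05 without DHT replicate 6. Among the 3 CA1 markers the sign of the difference was thus mixed.

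Both CA3 markers had positive log2 fold changes, with intervals that included 0. Bok (ENSMUSG00000026278) was at 25.5, 16.7, 22.8, 15.2 and 28.5 CPM with void and at 28.4, 21.7, 20.1, 31.3 and 34.9 CPM with DHT. Iyd (ENSMUSG00000019762) was at 4.13, 3.12, 3.51, 2.21 and 3.85 CPM with void and at 5.66, 4.12, 3.98, 4.49 and 3.25 CPM with DHT. The lowest 2 mice were void replicates 5 and 11 for both genes, and the groups overlapped in both. The log2 fold change was 0.32 for Bok (standard error 0.19, adjusted p = 0.453) and 0.35 for Iyd (standard error 0.18, adjusted p = 0.368, edgeR for both). With the choroid plexus level of each library as a covariate the estimates were −0.19 (standard error 0.25) and −0.05 (standard error 0.27). Every void mouse had a lower choroid plexus level than every DHT mouse, so this fit cannot separate that level from DHT.

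Amigo2 (ENSMUSG00000048218), the CA2 marker, was at 25.7, 21.03, 29.7, 22.1 and 31.9 CPM with void and at 31.9, 27.8, 29.5, 26.7 and 30.1 CPM with DHT. The DHT mice were close together, with a coefficient of variation of 6.91% against 18% with void, and the void mice reached from below the DHT range to its top. DHT minus void was 0.16 on the log2 scale (SE 0.11, adjusted p = 0.533, edgeR) and 0.07 without void replicate 11. With the choroid plexus covariate it was −0.25 (SE 0.09, unadjusted p = 0.0179, adjusted p = 0.597, edgeR), in a fit that likewise cannot separate the covariate from DHT.

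The exact permutation test of each marker's group means of log2 CPM, two-sided, gave p-values from 0.111 (Iyd) to 0.635 (Wfs1), where 5 mice against 5 can reach 0.00794. The balance of dentate gyrus to CA1, taken as the mean log2 CPM of the 4 dentate markers minus that of the 3 CA1 markers, was between −0.241 and 0.209 with void and between −0.478 and 0.250 with DHT. Its group means were −0.08 for both groups. The lowest values belonged to void replicate 9 and DHT replicate 6, whose libraries had the highest GC balance of their groups (0.26 and 0.53). All 3 CA1 markers have GC-rich transcripts. Whether the GC balance contributes to this measure was not tested. CA3 minus CA1 had a mean of −3.60 ± 0.25 (SD, n = 5, log2 scale) in void mice and −3.25 ± 0.26 (SD, n = 5) in DHT mice, with overlapping groups.

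Per kilobase of exon, which allows levels of different genes to be set side by side, the order in void mice was led by Wfs1 at 39.5 ± 3.73 CPM per kb (SD, n = 5), then Calb1 at 29.3 ± 3.83, Fibcd1 at 27.9 ± 4.64, C1ql2 at 25.7 ± 6.08 and Prox1 at 19.7 ± 4.10. Pou3f1 followed at 14.4 ± 1.68, Bok at 11.8 ± 3.09, Amigo2 at 8.25 ± 1.48 and Dsp at 8.08 ± 1.81, with Iyd last at 2.07 ± 0.46. Ordered by the mean over all 10 mice, each marker's range overlapped that of the next one in order, except between Amigo2 and Iyd. All dentate and CA1 markers but Dsp stood above the CA3 and CA2 markers. Exon lengths were taken from GENCODE M21, an annotation older than the one behind the counts.

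Other markers of the same cell types, 37 genes in fixed lists, included 2 that passed the test, a share like the 5.48% of all genes called. Among them 1 rose (Map3k15), 1 fell (Trpc6) and the rest were not called, 19 log2 fold changes were positive and 18 negative, and the median was 0.00056. The groups did not overlap for 3 of the 37, the 2 named and Ccn3, beside the 6.27% of all genes given above. Of the 11 other dentate granule cell genes 1 was called, of 5 CA1 genes 0, of 7 CA3 genes 0, of 6 CA2 genes 1, of 3 mossy cell genes 0 and of 5 immature granule cell genes 0.

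**Figure D2:**
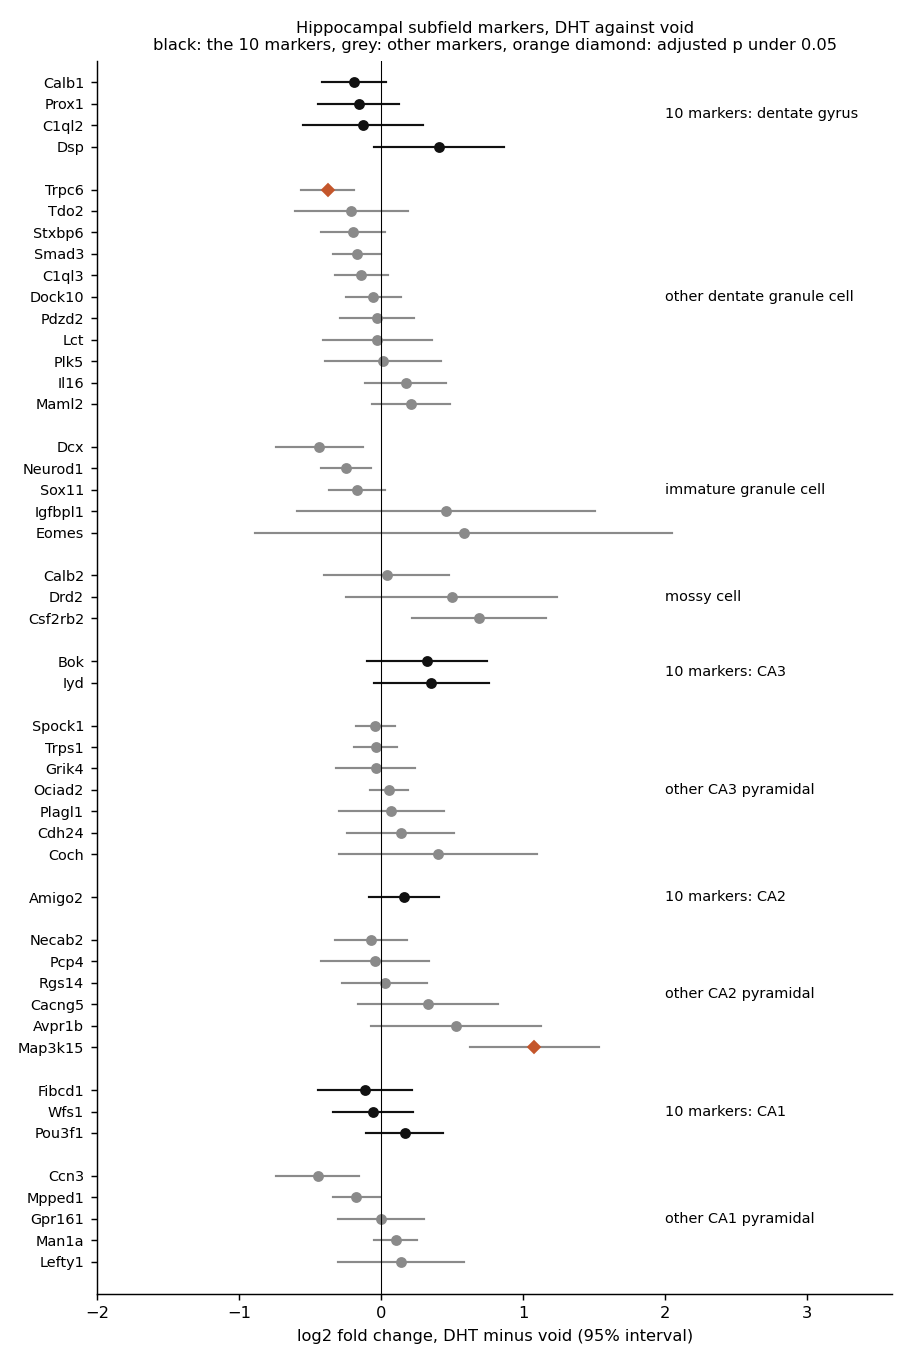
Log2 fold change of DHT minus void (x axis, with 95% interval) for the 10 markers (black) and 37 other subfield markers (grey), grouped by subfield or cell type on the y axis, with genes called at an adjusted p under 0.05 as orange diamonds. The intervals of all 10 markers include 0, and the called genes are Trpc6 and Map3k15.

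Map3k15, a kinase gene used as a CA2 marker, was at 2.84, 2.61, 3.83, 2.14 and 3.66 CPM with void and at 9.45, 5.70, 6.56, 4.82 and 5.48 CPM with DHT. Every DHT mouse was above every void mouse. It rose by 1.08 on the log2 scale (SE of 0.21 and adjusted p = 0.0128, edgeR). None of the other CA2 genes was called. In this list of 6, 4 log2 fold changes were positive and 2 negative, with a median of 0.18. Next to Map3k15 the highest was Avpr1b at 0.53 (SE 0.27), which was under 1 CPM in the mean of either group. Rgs14, a regulator of G protein signaling that marks CA2 strongly, stood at 0.03 on the log2 scale (SE 0.14), and the lowest of the list was Necab2 with −0.07. Between mice of the same group Map3k15 had r = 0.719 with the choroid plexus score (the mean log2 CPM of the 12 choroid plexus markers) and 0.795 with Amigo2, given as a description with no test.

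Trpc6, a cation channel of granule cells, was at 20.1, 24.5, 23.5, 22.4 and 19.9 CPM with void and at 15.8, 19.6, 16.1, 17.5 and 16.2 CPM with DHT, so that the lowest void and the highest DHT mouse nearly met. It fell by 0.37 on the log2 scale (SE 0.09, adjusted p = 0.0256, edgeR). The highest value among the other dentate genes was 0.21, for Maml2.

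The calls for these 2 genes were not firm. With the choroid plexus covariate 0 of all 17622 genes were called, so both lost their call. The log2 fold changes were then 0.49 for Map3k15 (SE 0.27) and −0.23 for Trpc6 (SE 0.13). The choroid plexus score did not overlap between the groups. That fit therefore cannot separate the score from DHT and does not decide whether the calls hold. Scaling on the pan-neuronal genes ended the call of Trpc6 (adjusted p = 0.0947, edgeR). Without void replicate 11 neither Map3k15 nor Trpc6 was called (log2 fold changes 1.004 and −0.36, adjusted p of 0.0516 and 0.0679, edgeR). Trpc6 also lost its call without void replicates 4 or 5 or DHT replicates 1, 3 or 6, each left out alone (adjusted p of 0.0734, 0.0528, 0.0754, 0.0605 and 0.0529, edgeR), with log2 fold changes from −0.38 to −0.35, near the −0.37 with all mice.

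Among the other CA1 genes the extremes were Lefty1 at 0.14 and Ccn3, a secreted matricellular protein, at −0.45 (standard error 0.13, adjusted p = 0.0806, edgeR), with DHT replicate 1 at 74.04 CPM below the other DHT mice. Among CA3 genes the extremes were Coch at 0.40 (standard error 0.32) and Spock1, a proteoglycan, at −0.04 (standard error 0.06). Among markers of mossy cells, the glutamatergic cells of the hilus, the extremes were Csf2rb2 at 0.69 (standard error 0.22, adjusted p = 0.0933, edgeR) and Calb2 at 0.04. Counts from whole tissue do not show which cells these transcripts came from. Among genes of immature granule cells, Eomes was at 0.58 (standard error 0.67) and Dcx, the microtubule protein doublecortin, at −0.44 (standard error 0.14, adjusted p = 0.106, edgeR). DESeq2 called Dcx, Neurod1 and Ccn3 lower in addition to the 2 genes above.

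Between mice of the same group, some markers of different subfields had high positive or negative correlations, though few pairs passed a test. Over the 10 mice, with log2 CPM centred on the group means, 2 of 45 pairs passed a permutation test with 100000 resamples and Benjamini-Hochberg adjustment, and 12 pairs had an absolute Pearson r of 0.7 or more. The pair of Pou3f1 (CA1) and Bok (CA3) had r = 0.85 and Spearman's rho = 0.88 (permutation p = 0.00091 and 0.0015, adjusted p = 0.0207 and 0.0471), and r = 0.83 without the 2 mice farthest from the median. Calb1 and Fibcd1 moved in opposite directions, with r = −0.91 and rho = −0.85 (permutation p = 0.00092 and 0.00367, adjusted p = 0.0207 and 0.0471), and r = −0.82 without the 2 farthest mice. Calb1 correlated with Prox1, a dentate marker like itself, at r = 0.05.

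**Figure D3:**
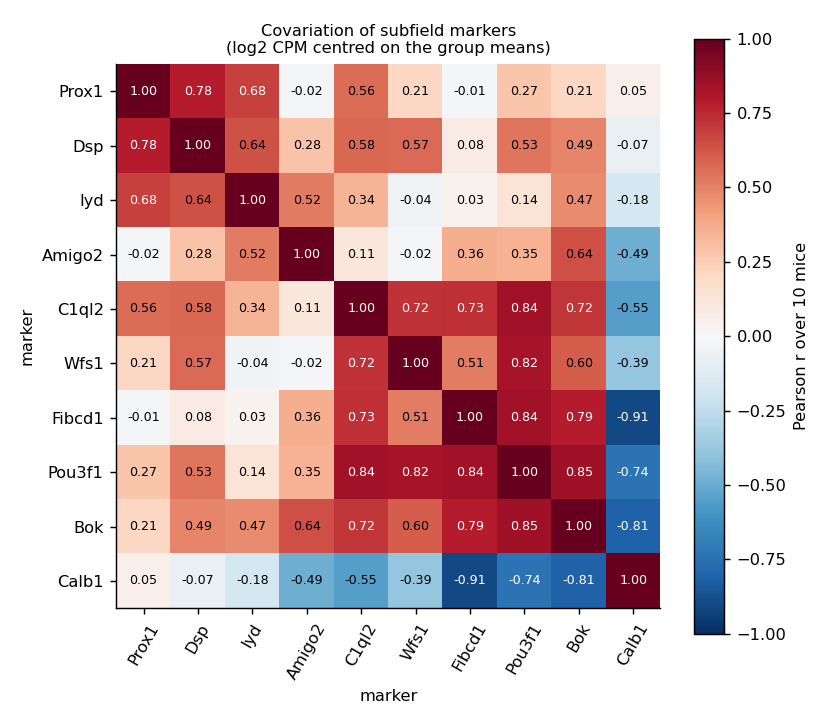
Pearson r (colour and number, from −1 to 1) over 10 mice between each pair of the 10 subfield markers on both axes, from log2 CPM centred on the group means. C1ql2, Wfs1, Fibcd1, Pou3f1 and Bok form a block of positive values to which Calb1 is opposed, and Prox1 and Dsp form a pair with r = 0.78.

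C1ql2, Wfs1, Fibcd1, Pou3f1 and Bok had pairwise r from 0.51 (Wfs1 and Fibcd1) to 0.85 (Pou3f1 and Bok). Of these pairs only that of Pou3f1 and Bok passed the adjustment. The same 5 were also the markers with GC-rich transcripts, and Calb1, with negative r to each of them, had a GC-poor one. Whether base composition accounts for their covariation was not tested. The GC balance of a library was taken as the mean log2 level of the GC-rich tested genes (transcript GC above 55.3%) minus that of the GC-poor ones (below 43.6%), relative to the mean over libraries. It ranged from −0.24 to 0.26 with void and from −0.27 to 0.53 with DHT, with no detectable difference between the groups (exact permutation p = 0.563, two-sided). Of the 10 markers, 6 had an absolute r of 0.7 or more with the GC balance, beside 35.3% of all genes. The 6 were the 5 markers of the GC-rich class (Pou3f1, C1ql2, Bok, Fibcd1 and Wfs1, all with positive r) and the 1 of the GC-poor class (Calb1, with negative r). Among the other genes, 58.4% of the GC-rich ones reached r of 0.7 or more, 48.5% of the GC-poor ones reached −0.7 or less and 23.5% of those in between reached either. The balance is computed from these same GC-rich and GC-poor genes, without the 10 markers, so their high shares are partly built in. The 35.3% of all genes includes them, so these shares are no independent support for a role of base composition.

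Pou3f1 had the closest relation, with r = 0.90 and rho = 0.93 (permutation p = 0.00063 and 0.00107, adjusted over 40 relations p = 0.0126 and 0.0352), and r = 0.73 without the 2 mice farthest from the median. For Calb1 r was −0.81 and rho −0.70 (permutation p = 0.00778 and 0.0372, adjusted p = 0.0778 and 0.213), and r = −0.61 without those mice, which did not pass the adjustment. Pou3f1 and Calb1 are the richest and the poorest of the 10 markers by whole transcript. Of all 40 relations, those of the 10 markers with the GC balance, the choroid plexus score, the total counts and the mean level of the pan-neuronal markers, 2 passed the adjustment, Pou3f1 with the GC balance and Amigo2 with the choroid plexus score. Prox1, Iyd, Amigo2 and Dsp, with intermediate composition, had r of −0.02, −0.04, 0.20 and 0.24 with the GC balance. Once the GC balance was removed from each marker, the pair of Pou3f1 and Bok was at r = 0.51, that of Calb1 and Fibcd1 at −0.69, and 7 pairs had an absolute r of 0.7 or more. Of these 1 was among the 12 before, Prox1 and Dsp, and the rest came above that limit only after the removal: Prox1 with C1ql2 (0.89), Bok with Iyd (0.83) and with Amigo2 (0.81), Calb1 with Wfs1 (0.82), Wfs1 with Fibcd1 (−0.78) and Dsp with Pou3f1 (0.74). The reason why libraries differ in GC balance was not tested.

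**Figure D4:**
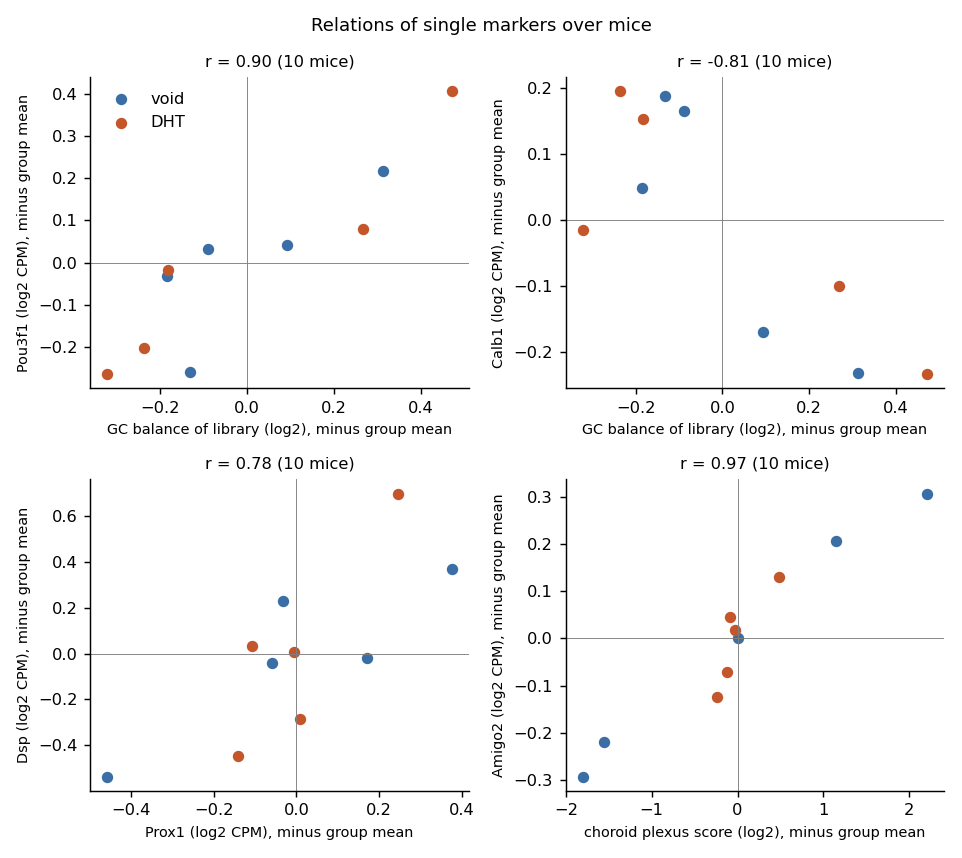
Values of single mice (void blue, DHT orange), each minus its group mean on the log2 scale, for Pou3f1 and Calb1 against the GC balance of the library, Dsp against Prox1, and Amigo2 against the choroid plexus score. Pou3f1 rises (r = 0.90) and Calb1 falls (r = −0.81) as the balance shifts to GC-rich genes, and Amigo2 lies close to a line with the choroid plexus score (r = 0.97).

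Some of the dentate markers varied together with Prox1, though no pair with Prox1 passed the adjustment. Dsp followed Prox1 with r = 0.78 and rho = 0.68 (permutation p = 0.00667 and 0.0482, adjusted over 45 pairs p = 0.0745 and 0.181, r = 0.68 without the 2 farthest mice), and r was 0.81 with the GC balance removed. For C1ql2 r was 0.56 and rho 0.37 (permutation p = 0.12 and 0.306, adjusted p = 0.295 and 0.51), falling to r = 0.11 without the 2 farthest mice, so that this relation rested on those mice, and r was 0.89 with the GC balance removed. The CA3 marker Iyd was nearer to Prox1 than C1ql2, with r = 0.68 and rho = 0.62 (permutation p = 0.0532 and 0.0784, adjusted p = 0.184 and 0.235), and r = 0.81 without the 2 farthest mice, while Calb1 was at 0.05. Of the 11 other dentate granule cell genes 4 had r of 0.7 or more with Prox1, beside 1.65% of all genes: Dock10 (0.975), Tdo2 (0.868), Lct (0.832) and Maml2 (0.740). Others of that list were near 0, with Plk5 at 0.062, Trpc6 at 0.070 and C1ql3 at 0.179. Dock10, a guanine nucleotide exchange factor, was the closest of all tested genes to Prox1. Its level ran from 111 CPM in void replicate 5 to 156 CPM in void replicate 11, the same mice that held the lowest and highest Prox1. Of the 5 other CA1, 7 CA3 and 6 CA2 genes, 0, 0 and 1 had such an r with Prox1, the 1 being Avpr1b (0.799), which was under 1 CPM in the mean of either group.

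Amigo2 was close to the choroid plexus score, with r = 0.97 and rho = 0.95 (permutation p = 0.00012 and 0.00176, adjusted over 40 relations p = 0.0048 and 0.0352), and r = 0.93 without the 2 mice farthest from the median. It was 1 of 10 markers with an absolute r of 0.7 or more, beside 5.9% of all genes, and ranked 31 among the 17622 genes. The score was 2.13 to 6.15 with void and 6.50 to 7.23 with DHT, and the void mice with low Amigo2, replicates 11 and 5, were those with the lowest scores. Ttr, the defining choroid plexus transcript, was at 62.5 and 65.1 CPM in these mice and at 329, 670.1 and 1335 CPM in the other void mice. Whether choroid plexus RNA contributes to the Amigo2 counts was not tested.

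The 3 genes most like each marker over the 10 mice, by Pearson r of centred log2 CPM and with no test, were as follows. For Prox1 they were Dock10 (0.975), Tnc (0.936) and Sema5a (0.917), and for Dsp Ap3b1 (0.962), Uvrag (0.953) and Kcnk1 (0.927). For C1ql2 they were Ehd1 (0.988), Nck2 (0.985) and Auts2 (0.982). For Calb1 they were Ppp3r1 (0.983), Rab1a (0.965) and Purb (0.963), with transcripts of 41.4% to 42% G and C. Wfs1 was nearest to Nudt17 (0.973), Gnai2 (0.971) and Sf3b4 (0.967), and Fibcd1 to Adcy3 (0.990), Sumf2 (0.987) and Pcdhgc5 (0.985). Pou3f1 was nearest to Klf13 (0.988), Cnih2 (0.979) and Ndst1 (0.978), whose transcripts hold 54.6% to 62.3% G and C. For Bok they were Derl1 (0.981), Itpk1 (0.973) and Homer3 (0.969), and for Iyd Abracl (0.967), Lonrf3 (0.945) and Nsun2 (0.944). Amigo2 was nearest to Wdr72 (0.975), E230013L22Rik (0.971) and Enpp2 (0.970), and Enpp2 is a fixed choroid plexus marker. Dock10 was the one gene among these 30 that belonged to the same subfield list as its marker.

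Markers of other tissue near the hippocampus were present in every group. Striatal markers summed to 88.2 to 104 CPM with void and 106 to 134 CPM with DHT, where 1 of 6 was called, Ppp1r1b (log2 fold change 0.76, adjusted p = 0.0156, edgeR), while Drd1, a defining dopamine receptor gene, had a mean of 6.72 ± 1.74 CPM (SD, n = 5) in void mice and 5.33 ± 0.19 CPM (SD, n = 5) in DHT mice. Markers of the neighbouring subiculum and cortex were between 268 and 372 CPM in sum with void and between 232 and 282 CPM with DHT, all 5 with negative log2 fold changes and 0 called by edgeR (2 at an unadjusted p under 0.05). Of 5 thalamic markers 0 were called by edgeR (1 at an unadjusted p under 0.05), with sums of 161 to 218 CPM with void and 166 to 214 CPM with DHT. The 5 excitatory neuron and 7 interneuron markers had 0 called and 0 at an unadjusted p under 0.05. Of 6 oligodendrocyte markers 0 were called (2 at an unadjusted p under 0.05). Of 6 astrocyte markers 1 was called, Gfap, at 1.18 (adjusted p = 0.00761, edgeR), while 5 had positive log2 fold changes and 3 an unadjusted p under 0.05.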

How the data were processed

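Hippocampal RNA of 10 female P301S mice (5 void, 5 DHT; groups from the labels) was sequenced as mRNA libraries, 1 per mouse. The authors trimmed reads with HTStream, aligned them with STAR 2.7.10b and deposited unnormalized counts for each gene. Their text names mm10 and the submitters' processing notes name mm39 and GRCm39. Annotation release, strand setting and treatment of multi-mapping reads are not given in the sources used here, so no coordinates are printed. Without strand, reads of Prox1, Dsp, Pou3f1 and Amigo2 cannot be told apart from those of overlapping genes on the other strand (Prox1os, Gm10129, Gm2164 and Pced1b). Symbols, exon lengths, transcript GC (98.1% of tested genes) and sequences came from GENCODE M21, which gave 51948 identifiers a symbol.

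Counts were fitted in R 4.3.3 with edgeR 4.0.16 (TMM, expression filter by group, quasi-likelihood test, Benjamini-Hochberg adjustment over all genes). log2 CPM used a prior count of 2. DESeq2 1.42.0, other scalings and filters, a choroid plexus covariate and leaving out each mouse were the alternatives. A GC balance covariate was added after seeing the data. Permutation tests of correlations ran in Python 3.11.15, and the exact permutation tests of group means ran in R. The edgeR and DESeq2 fits and the correlation test were tried on simulated data. The exact test and the rule for an extreme mouse were not.

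The members and lists were chosen with earlier results of these data known. Genes named are all 10 markers, in each list of other markers those with an adjusted p under 0.05 and otherwise the highest and lowest log2 fold change, and the 3 genes most correlated with each marker. Neurod1, Rgs14, Tdo2, Lct, Plk5, C1ql3, Pdzd2, Gpr161, Drd2 and Avpr1b were named after their values were seen. An item of the fixed lists is not reported here, and list counts leave it out.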

Additional observations from a re-analysis of the deposited data

Results flagged for a closer look

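Among 114 sets of 5 values (the 10 markers, the other subfield markers, 4 markers of other cells and the library measures in each group), 6 had an extreme mouse parted from its neighbour by over 0.71 of the full range of log2 values, where chance gives about 5.7. None of the 6 was a set of the 10 markers.

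Void replicate 5 was lowest for Gpr161 at 60.01 CPM, against 101 CPM in the next void mouse (0.921 of the range), for Avpr1b at 0.256 CPM (0.769) and for Pdzd2 at 62.2 CPM (0.728). DHT replicate 1 was lowest for Ccn3 at 74.04 CPM, where the next DHT mouse was at 110.6 CPM (0.776). DHT replicate 6 was highest for Drd2 at 8.84 CPM, against 2.97 CPM in the next DHT mouse (0.895), and void replicate 9 for Spock1 at 391 CPM, against 346 CPM in the next void mouse (0.848).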

How the results depend on the processing

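No paired analysis was possible because the labels give no pairing of void and DHT mice. The study randomized littermates to treatment, but the labels do not give the litter. In every setting run, 0 of the 10 markers were called. Of 80 marker fold changes under other settings 73 kept their sign and 7 reversed. Scaling on the pan-neuronal genes, which moved the median of all genes to 0.147, gave 0.0029 for C1ql2, 0.0852 for Wfs1 and 0.0134 for Fibcd1. The choroid plexus covariate, which cannot be separated from DHT here, gave 0.0359 for Calb1, −0.194 for Bok, −0.0469 for Iyd and −0.254 for Amigo2. Leaving out 1 mouse reversed 1 of 100 values, Wfs1 without DHT replicate 3, whose range was −0.150 to 0.0148. With 1 mouse left out the other log2 fold changes lay between −0.26 and −0.08 for Prox1, −0.25 and −0.04 for C1ql2, 0.15 and 0.49 for Dsp, −0.26 and −0.13 for Calb1, −0.24 and −0.03 for Fibcd1 (without DHT replicate 6 and void replicate 9), 0.05 and 0.23 for Pou3f1, 0.22 and 0.44 for Bok, 0.20 and 0.44 for Iyd, and 0.07 and 0.24 for Amigo2.

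The number of markers with an unadjusted p under 0.05 was 4 with pan-neuronal scaling, 1 with a filter of at least 1 count in all, 1 with the choroid plexus covariate and 1 with the GC balance covariate. With 1 mouse left out it was 0 to 3 (3 without void replicate 9). Other subfield markers called lower numbered 1 in the reported fit, 4 in DESeq2, 2 with a filter of at least 1 count in all, 0 with pan-neuronal scaling, 0 with the choroid plexus covariate and 0 to 1 with 1 mouse left out. Those called higher numbered 2 with pan-neuronal scaling, 0 with the choroid plexus covariate and 0 to 2 with 1 mouse left out. Without centring on the group means, 1 pair of markers passed the adjustment in place of 2, and it was among the 2. What caused these shifts was not tested. With 5 mice per group the standard errors of the 10 markers were 0.10 to 0.21 on the log2 scale.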
